A study of Homo sapiens with 8 samples.

Results

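G3BP1 peaks on 5 mRNAs of lipid synthesis were examined, those of FASN, ACLY, ACACA, SCD and SREBF2. The members were taken by position, as peaks that lay wholly inside a fixed hg19 window around each gene and on the gene's strand. They numbered 37 of 2925 peaks in the PDS list and 26 of 1421 peaks in the Ctrl list, 1.26% and 1.83% of these lists. The windows were chosen with the peak counts already known, so the counts below describe these genes and were not tested.

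The binding sites of G3BP1, which takes part in forming stress granules, were mapped by seCLIP, in which RNA is crosslinked to protein by light, recovered with an antibody (IP) and sequenced beside an input library. The cells were HEK293T, an established human embryonic kidney line. The 8 libraries formed 4 groups of 2: IP and input after 12 h in 20 µM PDS, which preceded the crosslinking, and the same pair of library kinds without treatment (Ctrl). The labels do not say whether replicates came from separate cultures. The labels do not spell out PDS, which in work on guanine quadruplexes usually stands for pyridostatin, a ligand that stabilises these four-stranded nucleic acid structures.

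The authors' lists give 1 log2 fold of IP over input and 1 −log10 p per peak, for both replicates together. Every fold and −log10 p below is therefore the authors' own value for a peak. No value exists per replicate, so no difference between the conditions could be set against the spread between replicates. The number of reads behind a peak is unknown. Peak lists hold no expression levels, so marker genes of the cell line could not be checked.

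Fatty acids are built in the cytosol from acetyl-CoA. ACLY, ATP citrate lyase, makes acetyl-CoA from citrate, ACACA, acetyl-CoA carboxylase, converts it to malonyl-CoA, and FASN, fatty acid synthase, joins these units into palmitate. SCD, stearoyl-CoA desaturase, then introduces a double bond into saturated fatty acids. SREBF2 encodes SREBP-2, a membrane-bound transcription factor released when sterols are low; it is known chiefly for driving genes of cholesterol synthesis and uptake, so the set holds 4 enzymes of fatty acid synthesis and a regulator of sterol metabolism. Proliferating cells use this pathway to make membrane lipids.

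The peaks were spread very unevenly over the 5 mRNAs. FASN held 29 of the 37 PDS peaks and 19 of the 26 Ctrl peaks. SREBF2 held 5 peaks in each list. ACLY held 3 PDS peaks and 1 Ctrl peak, SCD held 0 PDS peaks and 1 Ctrl peak, and ACACA held 0 in both lists. Per 10 kb of window, introns included, FASN carried 14.5 PDS and 9.50 Ctrl peaks, whereas the other 4 windows lay between 0 and 0.681 in either list.

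The windows are on chr17:80036200-80056200, minus strand, for FASN; chr17:40023100-40075300, minus strand, for ACLY; and chr17:35441900-35767000, minus strand, for ACACA. Those of SCD and SREBF2 are chr10:102106700-102124600 and chr22:42229000-42302400, both on the plus strand. On the opposite strand the 5 windows held 0 peaks in either list, and 0 peaks crossed a border. The closest same-strand peak outside any window lay 94.1 kb beyond the ACLY window, in the PDS list. RefSeq gives the genes (IDs 2194, 47, 31, 6319 and 6721 in the order FASN, ACLY, ACACA, SCD, SREBF2) lengths of 19899, 63629, 321845, 17594 and 74201 nt in GRCh38. The windows of ACLY (52200 nt) and SREBF2 (73400 nt) are shorter than these genes. The next same-strand peaks lay too far off for windows of the full length to gain any. An hg19 annotation was not used here, so exons, introns and UTRs are not assigned, and positions are given as distances from the ends of the window.

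In the 5 windows together, PDS peaks were 1.42 times as many as Ctrl peaks (37 and 26), against 2.06 times over the whole lists. The PDS peaks here covered 1584 nt and the Ctrl peaks 1413 nt, a ratio of 1.12, against 1.74 over the whole lists. Without FASN, the other 4 windows together held 8 PDS and 7 Ctrl peaks. Strongly enriched peaks were few. A log2 fold of at least 4 was reached by 3 of 37 PDS peaks (8.11%, where 27.6% of all PDS peaks reached it) and by 5 of 26 Ctrl peaks (19.2%, where 22.0% of all Ctrl peaks did). The larger Ctrl count rested on 3 neighbouring Ctrl peaks at the 3′ end of FASN. Without the last 1000 nt of that window, a choice made after seeing the data, 3 PDS and 2 Ctrl peaks reached it. Outside that stretch, 2 of the 28 PDS peaks (7.14%) and 2 of the 16 Ctrl peaks (12.5%) of FASN reached it. In the other 4 windows together, 1 of 8 PDS peaks (12.5%) and 0 of 7 Ctrl peaks did. The Ctrl share thus rested on FASN alone.

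The median log2 fold was 3.36 for the 37 PDS peaks, beside 3.59 for the whole PDS list, and 3.59 for the 26 Ctrl peaks, beside 3.52 for the whole Ctrl list. In the PDS list 11 of 37 peaks lay above that list's median, and in the Ctrl list 17 of 26 lay above theirs. The same held for the −log10 p, which lay above the list's median in 6 of 37 PDS peaks and in 15 of 26 Ctrl peaks. Thus the PDS peaks on these mRNAs were mostly among the weaker ones of a longer list. The Ctrl peaks lay mostly in the upper part of a shorter one on FASN alone. In the other 4 windows together, 2 of 7 Ctrl peaks lay above that list's median fold and 1 of 7 above its median −log10 p. None of the 63 had a −log10 p of 400, the highest value in both lists.

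**Figure D1:**
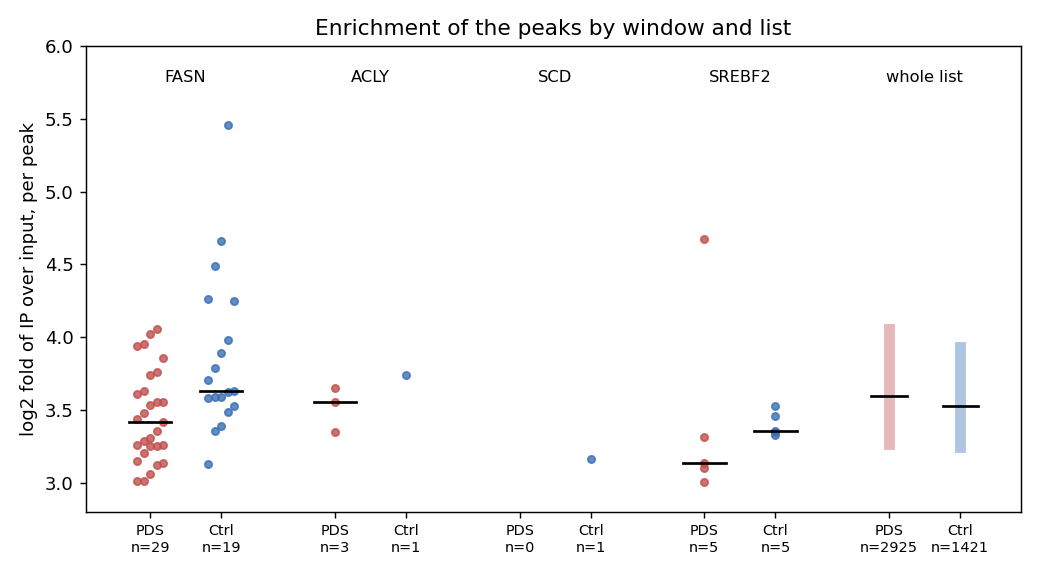
The log2 fold of IP over input (vertical axis) is shown for every peak in 4 windows, PDS left of Ctrl; horizontal lines are medians, and for the whole lists the bar spans the quartiles. The 29 FASN peaks of the PDS list end at 4.05, whereas 5 of the 19 FASN peaks of the Ctrl list lie above 4, up to 5.45; ACACA held no peak and is not drawn.

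Peaks of FASN, the enzyme that completes palmitate, were examined along the gene. In both lists the 5′ part of the window was empty: the first PDS peak began 7028 nt and the first Ctrl peak 7834 nt from the 5′ end of a 20000 nt window. From there the PDS peaks spanned 12163 nt and the Ctrl peaks 11869 nt. The FASN peaks were narrow, with a median width of 31 nt in PDS and 35 nt in Ctrl, where the whole lists had 63 and 74 nt. In PDS, 6 FASN peaks began where the previous peak ended (23.7% of all PDS peaks did so), and in Ctrl 2 did (11.1% of all Ctrl peaks). When peaks within 50 nt were joined, FASN held 19 PDS and 13 Ctrl regions. In covered length the lists were nearly level on FASN, with 943 nt in PDS and 878 nt in Ctrl.

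The log2 fold of FASN peaks ran from 3.01 to 4.05 in PDS, with a median of 3.42, and from 3.13 to 5.45 in Ctrl, with a median of 3.63. Only 9 of the 29 PDS peaks, but 15 of the 19 Ctrl peaks, lay above the median of their own list. The −log10 p ran from 6.65 to 32.3 in PDS and from 8.28 to 49.5 in Ctrl. The largest −log10 p on FASN belonged to a 160 nt Ctrl peak at chr17:80043518-80043677 with a log2 fold of 3.53. At this place the PDS list had 2 narrower peaks of 36 and 66 nt, with log2 folds of 3.42 and 3.25.

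The lists shared part of their FASN peaks. In the PDS list 12 of 29 met a Ctrl peak in at least 1 nt, a share of 41.4% (exact 95% binomial interval 23.5 to 61.1%), where 30.6% of the whole list did. In the Ctrl list 10 of 19 met a PDS peak, a share of 52.6% (28.9 to 75.5%), where 51.5% of the whole list did. These intervals allow for counting error alone and treat neighbouring peaks as independent, which they are not. Both include the share of the whole list. Bases in a peak of both lists numbered 396, or 42.0% of the PDS and 45.1% of the Ctrl length on FASN. Over the whole lists these shares were 24.4% and 42.5%. Joined over both lists within 50 nt, the FASN peaks formed 24 regions, of which 7 held peaks of both lists, 11 held PDS peaks alone and 6 held Ctrl peaks alone. The like shares over the whole lists are not given here.

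**Figure D2:**
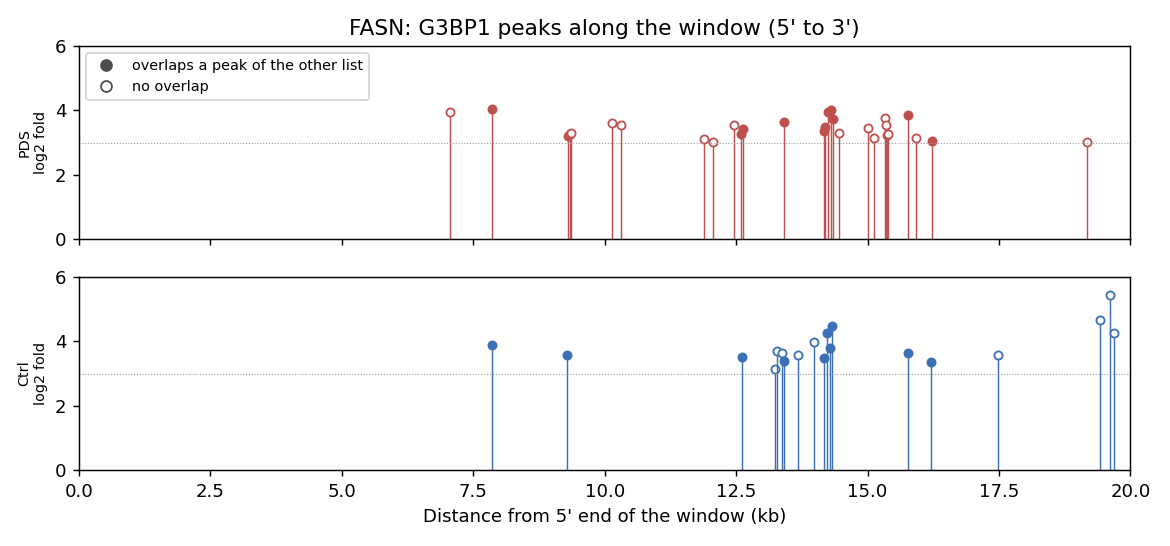
Peaks on FASN are drawn at their midpoints by distance from the 5′ end of the window in kb (horizontal axis), with the log2 fold of IP over input as height, PDS above Ctrl; filled points overlap a peak of the other list, open points do not, and the dotted line marks a log2 fold of 3. Both lists are empty over the first 7 kb and dense around 14 kb, and the 3 open Ctrl points near the 3′ end, at 4.66, 5.45 and 4.25, have a single PDS neighbour at 3.01.

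The lists differed at the 3′ end of FASN. Here the Ctrl list held 3 of its 5 FASN peaks with a log2 fold of at least 4. The peak with the highest fold, at chr17:80036538-80036630, was 93 nt wide with a log2 fold of 5.45 and a −log10 p of 37.8, rank 14 of all 1421 Ctrl peaks. On its sides lay chr17:80036498-80036532 (log2 fold 4.25, −log10 p 19.4), the Ctrl peak nearest the 3′ end of the window, and chr17:80036733-80036807 (log2 fold 4.66, −log10 p 22.7). None of the 3 overlapped a PDS peak. The nearest PDS peak, chr17:80037010-80037054, was 202 nt from the closest of them and 379 nt from the strongest, and its log2 fold was 3.01, above only 1.47% of the PDS list. Over the whole Ctrl list, 69.0% of peaks with a log2 fold of at least 4 and 84.2% of those with at least 5 overlapped a PDS peak. The strongest FASN peak was thus among 6 of 38 Ctrl peaks of that strength that did not. A PDS peak with a log2 fold under 3 would not be in the list, so binding at this place after PDS is not shown to be absent.

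The peaks common to both lists were densest near the middle of the bound stretch. Between 80041851 and 80042028, a span of 178 nt, the PDS list had 5 peaks and the Ctrl list 4. The PDS peaks here included 2 of the highest on FASN, chr17:80041881-80041927 with a log2 fold of 4.02 and chr17:80041928-80041993 with 3.94 and a −log10 p of 32.3, the largest of any PDS peak in the 5 windows. The Ctrl peaks here reached log2 folds of 4.49 at chr17:80041856-80041878 and 4.26 at chr17:80041932-80042000. The FASN peak with the highest PDS fold, 4.05, lay further 5′ at chr17:80048320-80048384. It covered the whole of the Ctrl peak chr17:80048322-80048366, which had a log2 fold of 3.89 and was the Ctrl peak nearest the 5′ end.

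Other stretches of FASN were occupied in a single list. Between 80040790 and 80040891 the PDS list had 4 peaks with log2 folds of 3.25 to 3.76, and the Ctrl list had 0. The PDS peak nearest the 5′ end of the window, chr17:80049120-80049172, had a log2 fold of 3.95 and lay 753 nt from the closest Ctrl peak. In the Ctrl list, chr17:80042911-80042941 and the abutting chr17:80042942-80042969 (log2 folds 3.70 and 3.13), chr17:80042486-80042546 (3.58) and chr17:80042202-80042235 (3.98) lay 107 to 223 nt from the nearest PDS peak. Peaks were also counted by midpoint in 1000 nt steps from the 5′ end, and only the steps that differed most are given. The step from 13000 to 14000 nt held 1 PDS and 6 Ctrl peaks. That from 15000 to 16000 nt held 8 PDS peaks and 1 Ctrl peak, and the 8 include the 4 neighbouring PDS peaks named above.

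ACLY, which supplies the acetyl-CoA that FASN uses, carried 4 peaks in all and none in common. The PDS peaks chr17:40063703-40063750 and chr17:40062781-40062852 lay 11550 and 12448 nt from the 5′ end of the window, with log2 folds of 3.65 and 3.55 and −log10 p of 15.2 and 12.3. The Ctrl list had nothing within 34 kb of them (the nearest Ctrl peak lay 34435 nt from the closer). Toward the 3′ end the lists came close without meeting. The PDS peak chr17:40027942-40028004 had a log2 fold of 3.35, the Ctrl peak chr17:40028285-40028345 had 3.74, and 280 nt separated them. Each had a −log10 p under its list's median.

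SCD, the desaturase, had a single peak, in the Ctrl list, at chr10:102116400-102116473. Its log2 fold was 3.16 and its −log10 p 4.79, the lowest −log10 p of all 63 peaks. ACACA, which makes the malonyl-CoA, had no peak in either list over a window of 325100 nt. Thus 2 of the 4 enzymes had no PDS peak, and of the other 2 only FASN had more than 3. The lists hold no level of these mRNAs.

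**Figure D3:**
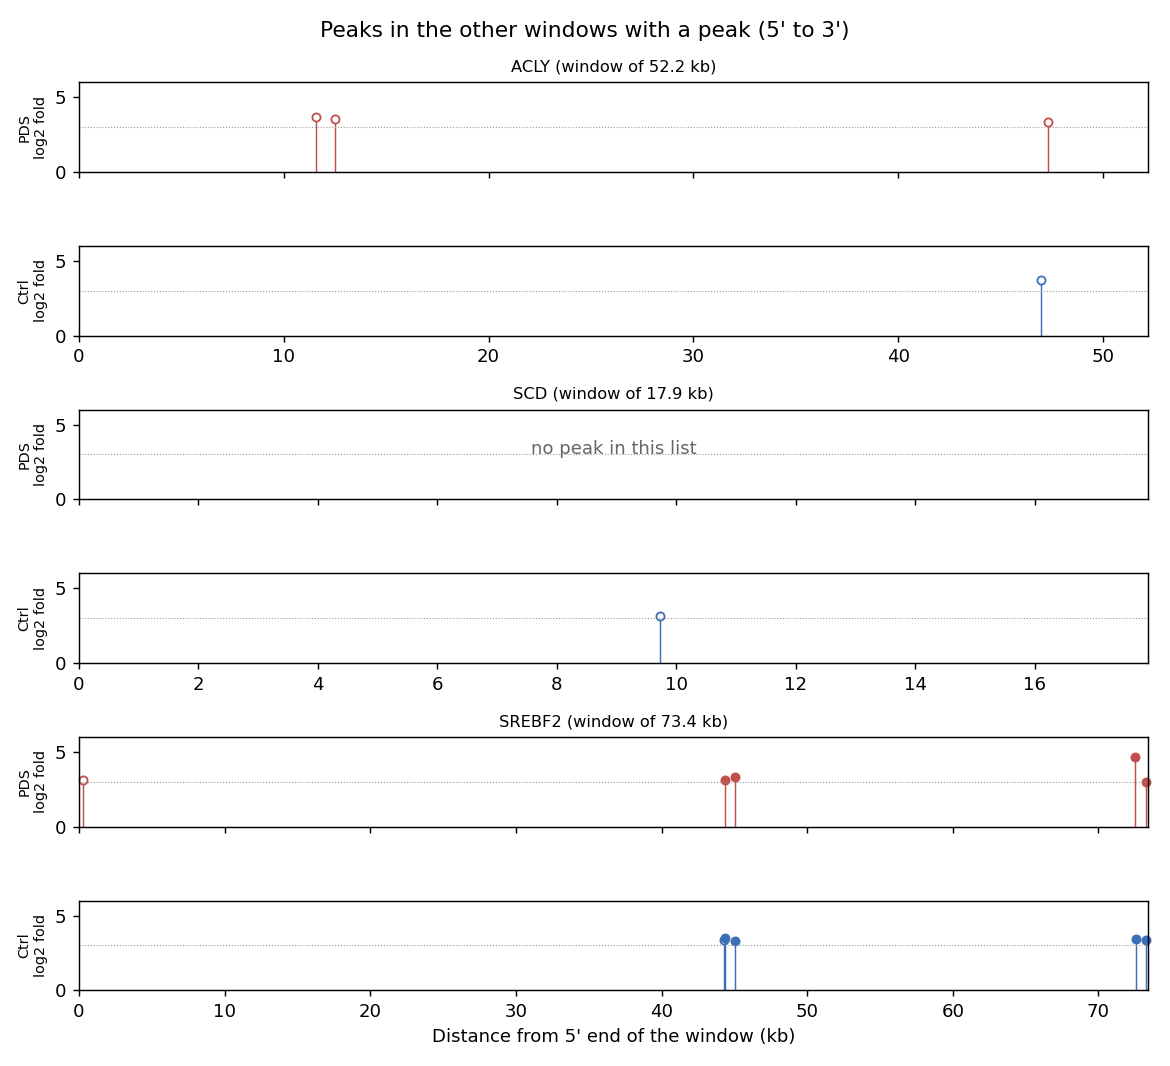
Peaks on ACLY, SCD and SREBF2 are drawn at their midpoints by distance from the 5′ end of each window in kb (horizontal axes), with the log2 fold of IP over input as height, PDS above Ctrl in each pair of panels; filled points overlap a peak of the other list, open points do not, and the dotted line marks a log2 fold of 3. The filled points are all on SREBF2, where 4 of 5 peaks in each list coincide, and its 5′ point, at 3.14, is in the PDS list alone.

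SREBF2, the mRNA of the sterol-regulated transcription factor, had the highest shares of overlapping peaks among the 5. Of its 5 PDS peaks, 4 overlapped a Ctrl peak (80.0%, exact 95% interval 28.4 to 99.5%), and of its 5 Ctrl peaks, 4 overlapped a PDS peak, with the same interval. The shared 301 nt made up 65.7% of the PDS and 75.2% of the Ctrl length, against 24.4% and 42.5% over the whole lists. Of all peaks, 30.6% of the PDS and 51.5% of the Ctrl ones overlapped, and the interval above includes both. The peaks lay in 3 places: a single PDS peak at the 5′ end, and peaks of both lists near 44 to 45 kb and within the last 1 kb of the window.

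The SREBF2 peak with the highest PDS fold lay near the 3′ end, at chr22:42301469-42301608, with a log2 fold of 4.67 and a −log10 p of 29.7. Its Ctrl partner, chr22:42301491-42301607, lay wholly inside it and had a log2 fold of 3.46 and a −log10 p of 20.2, the largest −log10 p but not the highest fold of the SREBF2 peaks in Ctrl. The difference of 1.21 on the log2 scale (PDS minus Ctrl) was the largest of all overlapping pairs in the 5 windows, and the PDS peak was the highest of the 37. The other SREBF2 pairs lay the other way. At the very 3′ end chr22:42302236-42302312 had 3.004 in PDS, just inside the limit of the list, and chr22:42302245-42302306 had 3.34 in Ctrl. The pairs at chr22:42273321-42273383 (PDS, 3.10) with chr22:42273324-42273402 (Ctrl, 3.53, the highest Ctrl fold on SREBF2) and at chr22:42274020-42274081 (PDS, 3.31) with chr22:42274020-42274098 (Ctrl, 3.33) were also lower in PDS.

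The SREBF2 peaks without a partner were 1 in each list. In PDS it was chr22:42229242-42229357, starting 242 nt from the 5′ end of the window, with a log2 fold of 3.14 but a −log10 p of 26.3. No Ctrl peak lay within 43893 nt of it. It was also the sole peak of either list in the first 7 kb of any window. In Ctrl it was chr22:42273251-42273313, with a log2 fold of 3.36, which ended 7 nt before the nearest PDS peak began.

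Across the 5 windows, 17 pairs of overlapping peaks were found, 13 on FASN and 4 on SREBF2. Each of 10 pairs joined exactly 1 PDS peak to exactly 1 Ctrl peak, 6 on FASN and 4 on SREBF2. In these the PDS fold was higher in 4 and lower in 6, with a median difference of -0.16 (PDS minus Ctrl, log2) and a range of -0.75 to 1.21. Over the whole lists, the PDS fold was higher in 254 and lower in 156 of 410 such pairs, with a median difference of 0.15. On FASN the PDS fold was higher in 3 of the 6, by at most 0.24, and the lowest difference, -0.75, was at chr17:80041851-80041880 (PDS, 3.74) with chr17:80041856-80041878 (Ctrl, 4.49). The pairs were picked by overlap and their differences have no replicate error, so they are given as values.

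**Figure D4:**
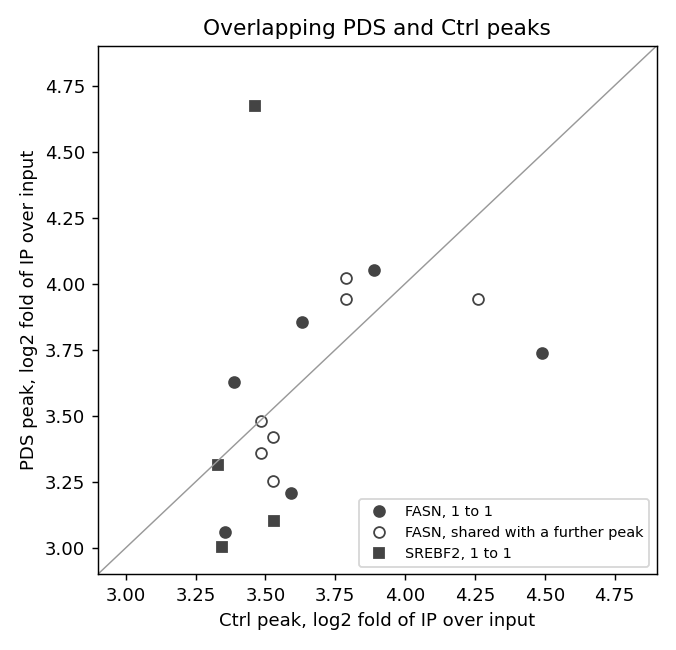
Each point is a pair of overlapping peaks, with the log2 fold of the PDS peak on the vertical axis and of the Ctrl peak on the horizontal axis; filled symbols are pairs of exactly 1 peak with 1 peak, open circles share a peak with a further pair, and the line marks equal values. Of 17 points 11 lie under the line, and the SREBF2 pair at 4.67 in PDS and 3.46 in Ctrl lies farthest above it.

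Taking all members, 16 of 37 PDS peaks overlapped a Ctrl peak (43.2%, exact 95% interval 27.1 to 60.5%), and 14 of 26 Ctrl peaks overlapped a PDS peak (53.8%, 33.4 to 73.4%). Both intervals include the share of the whole list, 30.6% in PDS and 51.5% in Ctrl. In PDS the median log2 fold was 3.45 for the 16 overlapping and 3.31 for the 21 other peaks, against 3.97 and 3.47 over the whole PDS list. In Ctrl it was 3.53 for the 14 overlapping and 3.66 for the 12 other peaks, the reverse of the order over the whole Ctrl list (3.63 and 3.43). The 3 peaks at the 3′ end of FASN are among those 12. All 3 PDS peaks with a log2 fold of at least 4 overlapped a Ctrl peak, where 53.8% of all PDS peaks of that strength did. Of the 5 such Ctrl peaks, all on FASN, 2 overlapped a PDS peak, and the other 3 were those of its 3′ end.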

How the data were processed

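The seCLIP peak lists analysed were 1 per condition, each deposited by the authors with replicate 1 and replicate 2 combined. Reads were processed with cutadapt, UMI-tools and STAR on hg19, per the submitters' processing notes; which peak caller and filters were used is not given in the sources used here. The lists have no header. One column was read as the deposited −log10 p and another as the deposited log2 fold of IP over input, from the values and the usual eCLIP format; every value was above 3. Starts were taken as counted from 0 and are printed counted from 1.

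Peaks were assigned to the 5 windows by position and strand, and overlap was counted from 1 nt on the same strand. Peaks within 50 nt were joined for region counts. Shares have exact (Clopper-Pearson) 95% intervals. The overlap step was tested on a list made of Ctrl peaks with shifted starts and of unchanged PDS peaks. The joining step was tested on the Ctrl list itself. Python 3.11.15, numpy 2.4.6, pandas 2.3.3 and scipy 1.17.1 were used.

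The members and the lists of alternatives were chosen with earlier results of these data known. Every member peak was counted; named singly were the strongest, the outermost and the overlapping ones, and further FASN and SREBF2 peaks chosen after their values were seen. A genome of this build was not used, so sequences under the peaks are not shown, and a list of other lipid synthesis genes, fixed for the case of an hg19 annotation, was not analysed here. No test was made, since the values are 1 per peak.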

Additional observations from a re-analysis of the deposited data

How the results depend on the processing

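Of 25 alternative values, 16 stayed close to those reported, 7 moved and 2 turned direction; a count or ratio was called close up to a factor of 1.5, a share inside its 95% interval and a median inside the quartiles of its peaks. With the stricter limits (log2 fold of at least 4 and −log10 p of at least 5) the windows held 3 PDS and 5 Ctrl peaks. This turned the ratio to 0.60, where the whole lists had 2.58 at the fold limit alone. Of both, 0% overlapped: the partners of the 3 PDS and of 2 Ctrl peaks fell under the limit. The other 3 Ctrl peaks, at the 3′ end of FASN, had no partner in the full lists either. The overlap of all peaks under these limits is not given here, so the 0% has no share beside it. Without the last 1000 nt of the FASN window, an alternative chosen after seeing the data, the stricter limits left 3 PDS and 2 Ctrl peaks, a ratio of 1.5 in the direction first reported. With the PDS list shortened to the Ctrl length by fold, 10 PDS peaks remained and the ratio turned to 0.385. The whole lists are equally long under this setting. As deposited, the ratio of 1.42 was already under the 2.06 of the whole lists. Direction here means only more or fewer PDS than Ctrl peaks. Without FASN 8 PDS and 7 Ctrl peaks remained, and the ratio of 1.14 kept its direction. Merging within 50 nt, covered length and a reach of 100 nt left the values close. A reciprocal overlap of 50% lowered the overlapping share from 43.24% to 29.73% in PDS and from 53.85% to 42.31% in Ctrl. These were called close only because the intervals of the shares are wide. The like shares over the whole lists are not given here. No paired analysis was possible because the authors combined the replicates before deposit. Leaving out single replicates could not be done either. Unknown depth limits any statement on missing peaks.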

Other observations

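Some peaks carry exactly the same log2 fold and −log10 p as another peak of their list. This applied to 20 PDS peaks (0.68%) and 277 Ctrl peaks (19.5%) over the whole lists, and to 1 of 37 PDS and 4 of 26 Ctrl peaks in the 5 windows. On FASN the Ctrl peaks chr17:80038714-80038734 and chr17:80046897-80046924, 21 and 28 nt wide, both had a log2 fold of 3.59 and a −log10 p of 10.6; the second overlapped a PDS peak and the first lay 1227 nt from any. Very short peaks were also present: 3 PDS peaks and 2 Ctrl peaks in the windows, all on FASN, were under 10 nt wide, as were 7.69% of all PDS and 2.67% of all Ctrl peaks. The cause of either pattern was not tested.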
